A study of Mus musculus with 46 samples.

Results

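The 9 genes described here, Clec7a, Itgax, Lgals3, Spp1, Gpnmb, Cd9, Cd63, Ly9 and Hcar2, encode surface or secreted proteins of the state that microglia take up around plaques and damaged myelin (disease-associated microglia). They were chosen by symbol, 9 of the 21231 genes listed in any of the 3 expression tables of the study. All 9 had a row in the tables of sorted cells, but only Lgals3, Spp1, Gpnmb, Cd9 and Cd63 had one in the table of subventricular zone (SVZ) tissue, so the other 4 were not analysed there. Levels are given in FPKM, a read count corrected for gene length and library depth.

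The study removed microglia from male C57BL/6 mice with PLX3397, which blocks the survival receptor CSF1R of microglia and was given in chow at 600 ppm, and then let cells return on control chow. Sorted CD11b+CD45int cells of whole hemispheres formed 8 of the 11 groups, from mice 2 months old at the start. WM repopulating cells came from mice given PLX3397 for 14 days and then 28 days of recovery, a schedule after which cells spread from white matter, and were collected without LPS (0 hr) or at 6 or 24 hr after LPS was injected intraperitoneally at 0.33 mg/kg, with 4 libraries per time. Control cells came from mice that never had PLX3397, with 3 libraries without LPS, 5 from cells taken 6 hr after the same injection and 4 from cells taken at 24 hr. GLOBAL repopulating cells (n = 3) came from mice given PLX3397 for 7 days and then 28 days of recovery, a schedule after which cells return throughout the brain, with control cells of their own (n = 4). The SVZ tissue came from control mice (n = 5), mice at the end of 14 days of PLX3397 (n = 5) and mice 5 days into recovery (n = 5), for which the methods give an age of 1.5 months. The sort takes any CD11b+CD45int cell, and does not separate returning cells from those that outlasted the inhibitor.

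In microglia around amyloid plaques, in aged white matter and in early postnatal life, a program that depends in part on the lipid receptor Trem2 lowers homeostatic genes and raises genes for phagocytosis, lysosomes and lipid handling. Several of its products sit on the cell surface, such as the beta-glucan receptor dectin-1 (Clec7a) and the integrin CD11c (Itgax), and are used to stain or sort these cells. LPS, a bacterial cell wall component sensed through Toll-like receptor 4, drives an acute inflammatory program that shares some of these genes and not others.

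Depth, in megareads recovered from the steps of the FPKM values, lay between 2.21 and 5.37 in the GLOBAL libraries, between 5.24 and 10.4 in the WM and LPS libraries and between 4.57 and 10.6 in the SVZ libraries. The 19 homeostatic microglia genes were all listed in the sorted cells, and their summed level lay between 25220 and 29921 FPKM in the 7 libraries at 0 hr. Markers of other blood cells were present too. The 7 neutrophil markers summed to between 1772 and 10645 FPKM at 0 hr, and the 6 monocyte markers to between 103 and 397 FPKM. Of the SVZ mice, control replicate 1 stood apart, with the 5 choroid plexus markers at a summed 21327 FPKM against 24.7 to 126 in the other control mice, and the levels it touches are given with and without it. No pair of libraries held identical values (0 pairs).

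The promoters of Itgax and Spp1 are shown because they were the members' promoters that held a searched motif. The table of RefSeq starts (GRCm38.p6) had an entry for 7 of the 9 members, and the 250 bases before the first start listed were searched on both strands for GAGGAAGT (bound by PU.1), TGANTCA (AP-1) and CACGTG (an E-box), which do not overlap here. In capitals are the matching bases, in Itgax at chr7:128129300-128129549 and in Spp1 at chr5:104434861-104435110, both on the plus strand. The Itgax and Clec7a windows reach past the outermost start annotated for each gene. The Cd63 window, at chr10:128909095-128909344, lies inside the annotated span of the gene (chr10:128896231-128912822), not before its outermost start.
Itgax: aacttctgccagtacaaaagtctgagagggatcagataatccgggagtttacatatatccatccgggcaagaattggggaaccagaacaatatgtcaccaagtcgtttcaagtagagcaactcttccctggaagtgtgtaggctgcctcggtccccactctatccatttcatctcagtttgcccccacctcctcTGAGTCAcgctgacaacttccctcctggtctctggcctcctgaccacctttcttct
Spp1: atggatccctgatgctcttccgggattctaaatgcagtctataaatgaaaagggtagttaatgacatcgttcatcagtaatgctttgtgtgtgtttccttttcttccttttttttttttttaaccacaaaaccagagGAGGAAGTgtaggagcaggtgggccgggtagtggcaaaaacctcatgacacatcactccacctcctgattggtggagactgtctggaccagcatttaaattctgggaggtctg

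Itgax held 1 AP-1 match, which starts 56 bases before the start, and Spp1 held 1 PU.1 match, 113 bases before it. Of 27025 genes with a promoter in that table, 2.44% held the PU.1 letters, 6.87% the AP-1 letters and 6.05% the E-box letters. The windows of Clec7a, Lgals3, Gpnmb, Cd9 and Cd63 held none of these letters (0 matches). Ly9 and Hcar2 were not searched.

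Among the receptors, Clec7a was higher in WM repopulating cells than in control cells at each time. Dectin-1 is a C-type lectin that signals through Syk, and its gene lies at chr6:129461591-129472785 (GRCm38.p6). Without LPS, the 4 WM libraries had 34.0, 32.9, 29.9 and 25.4 FPKM and the 3 control libraries 17.6, 6.89 and 9.03 FPKM. The groups did not overlap, and the lowest WM library exceeded the highest control library. In bulk RNA, a change in the number of cells of a type cannot be told apart from a change in RNA per cell. The ratio of the means was 2.73, with a log2 fold change of 1.46 ± 0.28 (SE) on log2(FPKM + 1) and a limma adjusted p of 0.00865. Without control replicate 2, the adjusted p was 0.0752 at a log2 fold change of 1.20.

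At 6 hr after LPS, Clec7a stood at 28.7, 24.5, 24.5 and 18.7 FPKM in WM cells and at 7.28, 5.36, 4.29, 6.18 and 7.97 FPKM in control cells. The groups were again apart, with a ratio of 3.88, a log2 fold change of 1.81 ± 0.25 (SE) and a limma adjusted p of 0.000328, in place 5 of 12684 genes ordered by p. At 24 hr the WM libraries held 22.1, 26.9, 17.04 and 10.6 FPKM and the control libraries 7.07, 9.55, 4.49 and 7.05 FPKM, with a log2 fold change of 1.29 ± 0.26 (SE) and a limma adjusted p of 0.00528. Clec7a was thus called in all 3 of these comparisons, and was the 1 member of which this was true.

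Hcar2, a G protein-coupled receptor for beta-hydroxybutyrate and niacin (chr5:123863570-123865516), was higher in WM cells at 0 and 24 hr. Its 4 WM libraries at 0 hr had 57.5, 48.5, 34.2 and 28.8 FPKM, and its control libraries had 10.6, 11.2 and 6.00 FPKM. All WM libraries lay above all control libraries, with a ratio of 4.56, a log2 fold change of 2.07 ± 0.42 (SE) and a limma adjusted p of 0.0129. Without control replicate 3, the adjusted p was 0.0762 at a log2 fold change of 1.81. At 24 hr after LPS the difference was called again, with 256, 305, 217 and 145 FPKM in WM cells against 92.9, 77.3, 74.4 and 29.2 in control cells and a limma adjusted p of 0.00850. At 6 hr it was not called (limma adjusted p = 0.608, log2 fold change 0.68), and control replicate 2, at 450 FPKM, lay above all 4 WM libraries. With 1 library left out, the log2 fold change lay between 0.49 and 1.05, with a limma adjusted p between 0.236 and 0.814. Hcar1, the lactate receptor of the same family, was not analysed here.

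Ly9, a SLAM family receptor better known from lymphocytes (chr1:171588613-171607410), had the smallest p of the members at 0 hr. The 4 WM libraries had 45.2, 52.1, 51.0 and 58.3 FPKM, and the control libraries had 23.6, 22.5 and 13.6 FPKM. The groups did not overlap, and the log2 fold change was 1.36 ± 0.18 (SE) with a limma adjusted p of 0.000206, in place 6 of 12684 genes. It remained called without any 1 library, with adjusted p between 0.000773 and 0.00340. The 7 listed lymphocyte markers moved with it, with a summed level between 14.8 and 25.7 FPKM in the WM libraries and between 4.92 and 9.84 FPKM in the control libraries, and 1 of the 6 tested was called higher. Their part in the Ly9 result was not tested. At 6 hr Ly9 was at 16.9, 22.7, 15.1 and 14.7 FPKM in WM cells and at 10.7, 12.4, 9.28, 8.76 and 12.9 FPKM in control cells, which did not overlap but gave a limma adjusted p of 0.0854. At 24 hr the groups overlapped (limma adjusted p = 0.412).

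In all, 3 of the 8 members tested (Gpnmb was under the limit on FPKM) were called in WM cells at 0 hr, where 1.21% of all genes tested were, and all 3 also had a log2 fold change above 1, where 0.781% of genes were both called and changed by more than 1 in either direction. At 6 hr, 1 of 8 was called against a background of 0.323%, and at 24 hr 2 of 8 against 3.97%. The study had already named Clec7a, Ly9, Axl and Apoe as enriched in these WM cells without LPS. The members were chosen with such results known, so these counts are not independent evidence of enrichment. At 24 hr the 6 border-associated macrophage markers summed to 17.1 to 34.1 FPKM in WM cells and 49.6 to 68.2 FPKM in control cells, with Mrc1 called lower in WM cells (log2 fold change -1.19, limma adjusted p = 0.0153). The choroid plexus markers at 24 hr summed to 10.9 to 32.03 FPKM in WM cells against 35.3 to 51.8 FPKM in control cells with 0 of 4 tested called, and of the 5 dendritic cell markers tested Xcr1 was called lower (log2 fold change -0.85, limma adjusted p = 0.00892). Of 4 oligodendrocyte precursor markers, the 2 analysed here summed to 1.48 to 3.98 FPKM in WM cells and 0.0567 to 0.508 FPKM in control cells at 6 hr, and to 0.716 to 1.15 and 0.0177 to 0.149 FPKM at 24 hr, with Cspg4 called higher at both times (limma adjusted p = 8.17e-06 and 0.0164). The 7 neutrophil markers at 24 hr summed to 3122 to 7105 FPKM in WM cells and 6286 to 15120 FPKM in control cells, ranges that overlapped. The part of these markers in the members' differences was not tested. The median log2 fold change over the members was 0.49, 0.44 and 0.30 at the 3 times, against 0.01, 0.00 and 0.02 over all genes. Of the 25 other disease-associated microglia genes tested, 1 was called at 0 hr, Axl, a receptor tyrosine kinase for apoptotic cells. Axl was at 30.6 ± 3.34 FPKM (SD, n = 4) in WM cells and at 5.35 ± 0.35 FPKM (SD, n = 3) in control cells, with a limma adjusted p of 0.000180. At 6 hr and 24 hr the lipid carrier gene Apoe was called as well, with limma adjusted p of 0.0110 and 9.49e-05. Of the 19 homeostatic genes, 0 were called at 0 hr and at 6 hr, and at 24 hr Fcrls was called lower in WM cells (log2 fold change -1.13, limma adjusted p = 0.00440). At 0 hr the 5 choroid plexus markers also stood higher in WM cells, at a summed 280 to 716 FPKM against 74.1 to 217 FPKM in control cells, with 0 of 4 tested called. The 5 astrocyte markers stood lower, at 36.02 to 49.8 FPKM against 53.1 to 56.9 FPKM, and the 2 oligodendrocyte precursor markers higher, at 0.198 to 0.319 FPKM against 0.0221 to 0.112 FPKM, with 0 of 3 and 0 of 1 tested called. The part of these markers in the members' levels was not tested.

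Genes related to each member were read beside it. None was called at 0 hr among the other C-type lectins of the Clec7a and Clec4 gene clusters (0 of 10), the dectin-1 signaling genes (0 of 8), the beta-2 integrin genes (0 of 3), the galectin genes (0 of 5), the osteopontin receptor genes (0 of 8) or the MiT family factors that drive lysosomal genes (0 of 4). Among 15 tetraspanin genes, Tspan32 was higher, at 26.7 ± 4.09 FPKM (SD, n = 4) in WM cells and 10.9 ± 1.51 FPKM (SD, n = 3) in control cells (limma adjusted p = 0.00865). Among 9 SLAM family genes, Slamf8 was higher, at 52.4 ± 9.77 FPKM (SD, n = 4) against 18.6 ± 2.01 FPKM (SD, n = 3), with a limma adjusted p of 0.0217. At 6 hr, 2 of these related genes were called, Tspan32 and the SLAM family gene Slamf9, both higher in WM cells (log2 fold change 1.05 and 1.03, limma adjusted p = 0.0180 and 0.00550). At 24 hr 1 was called, the lectin Clec4n, which was lower in WM cells, with a log2 fold change of -1.79 and a limma adjusted p of 0.000371.

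**Figure D1:**
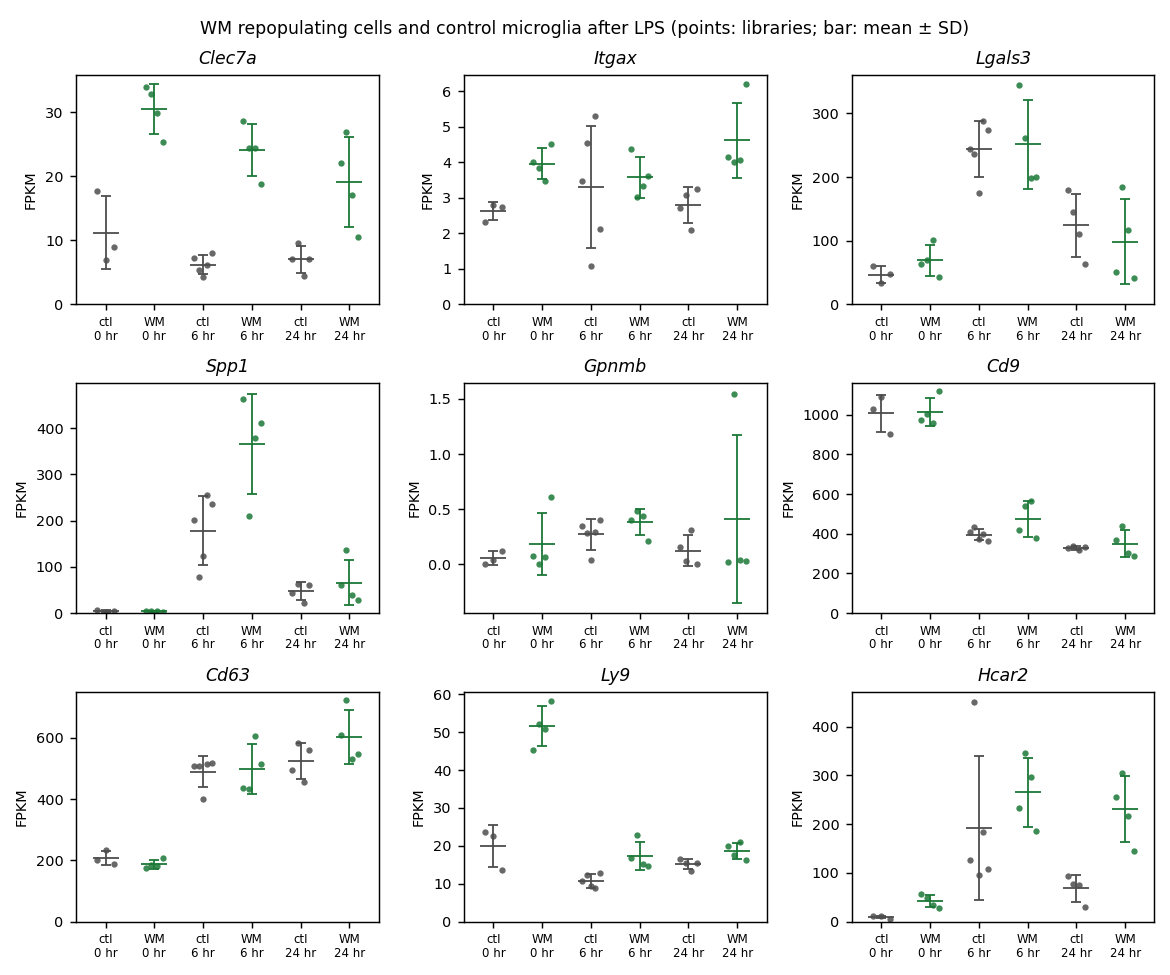
FPKM of the 9 members in control cells (grey) and WM repopulating cells (green) at 0, 6 and 24 hr after LPS, with a point per library and bars for mean ± SD. Clec7a in WM cells is above control cells at all 3 times, and after LPS Cd9 is lower and Cd63 higher in both kinds of cell.

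Itgax, the alpha chain of CD11c (chr7:128129526-128150657), was low in all sorted cells. At 0 hr its WM libraries had 4.01, 3.85, 3.48 and 4.53 FPKM and its control libraries 2.33, 2.81 and 2.75 FPKM, from 63 to 142 reads a library. These groups did not overlap, but the ratio was only 1.51 and the difference was not called (limma adjusted p = 0.523). At 24 hr they were again apart and not called (4.16, 4.02, 4.07 and 6.22 FPKM against 2.73, 3.09, 2.10 and 3.26, limma adjusted p = 0.219). At 0 hr, 4 members (Clec7a, Itgax, Ly9 and Hcar2) had groups that did not overlap, as did 13.6% of all genes tested.

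The other members did not differ between WM and control cells in any call. Cd9, a tetraspanin of the cell surface (chr6:125460266-125494760), had the highest level per length of the members at 0 hr, at 1014 ± 72.0 FPKM (SD, n = 4) in WM cells and 1008 ± 93.8 FPKM (SD, n = 3) in control cells. The log2 fold change was 0.01 with a 95% confidence interval of -0.29 to 0.32. Cd63, a tetraspanin of late endosomes and lysosomes (chr10:128896231-128912822), came second at 187 ± 14.04 FPKM in WM cells and 207 ± 23.2 FPKM in control cells, with an interval of -0.44 to 0.16. Lgals3, the secreted galectin-3 (chr14:47373860-47386167), followed at 69.2 ± 24.3 FPKM and 47.0 ± 13.5 FPKM, with a wider interval of -0.29 to 1.34. Spp1, the secreted phosphoprotein osteopontin (chr5:104435111-104441053), was at 5.07, 4.87, 3.95 and 2.63 FPKM in WM cells and 7.45, 3.24 and 5.07 FPKM in control cells. Gpnmb, a transmembrane glycoprotein of lysosome-rich cells (chr6:49036518-49058182), rested on 0 to 18 reads a library at 0 hr. Without the filter its log2 fold change was 0.15, with a limma adjusted p of 0.866.

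**Figure D2:**
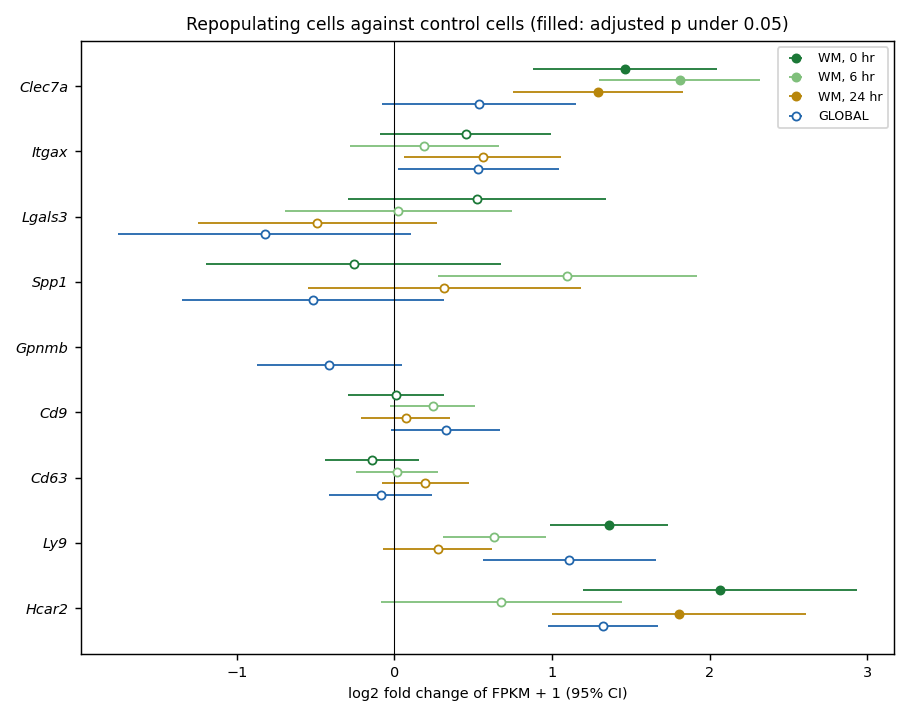
Log2 fold change of FPKM + 1 in repopulating cells over control cells, with 95% confidence intervals and filled points for adjusted p under 0.05. The 6 filled points belong to Clec7a, Ly9 and Hcar2 in WM cells, and Gpnmb has a point in the GLOBAL experiment alone.

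GLOBAL repopulating cells were compared with control cells of their own, and the 2 experiments were normalized separately, so their values are set side by side and the difference between them was not tested. Here 0 of the 9 members were called, and 0% of the 16651 genes tested were called by limma, with 1504 at an unadjusted p under 0.05. The 7 neutrophil markers summed to between 2103 and 22616 FPKM in the control libraries and between 1268 and 4567 FPKM in the repopulation libraries. Beside them the 19 homeostatic genes summed to between 17542 and 21681 FPKM and between 20376 and 20869 FPKM. The part of the neutrophil markers in the members' levels was not tested. Hcar2 had the smallest p of all 16651 genes. Its control libraries held 11.2, 11.4, 12.5 and 12.9 FPKM and its repopulation libraries 27.7, 29.2 and 38.6 FPKM, from 49 to 305 reads. The groups did not overlap, with a ratio of 2.65 and a log2 fold change of 1.32 ± 0.16 (SE), but the limma adjusted p was 0.0776.

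Ly9 had 9.02, 11.1, 6.98 and 5.55 FPKM in GLOBAL control cells and 12.96, 20.97 and 22.3 FPKM in repopulating cells. The groups did not overlap, with a ratio of 2.29, in place 59 by p, and a limma adjusted p of 0.275. The 8 lymphocyte markers summed to between 10.1 and 19.2 FPKM in the control libraries and between 8.30 and 16.4 in the repopulation libraries, and these ranges overlapped. Clec7a overlapped between the groups, at 10.1, 10.6, 7.51 and 6.33 FPKM against 7.46, 17.7 and 15.3 FPKM (limma adjusted p = 0.589).

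Itgax also did not overlap in this experiment. It was at 4.10, 2.82, 4.15 and 3.07 FPKM in control cells and 4.22, 7.81 and 4.97 in repopulating cells, with the lowest of these just above the highest control library. Gpnmb was at 0.853, 1.07, 1.20 and 1.08 FPKM in control cells and at 0.389, 0.490 and 0.764 FPKM in repopulating cells, from 4 to 20 reads a library (limma adjusted p = 0.581). It passed the limit on FPKM only through 3 control libraries, the group where it is higher, and so is left out of the next count. Of the other 8 members, 3 (Itgax, Ly9 and Hcar2) did not overlap, against 9.96% of all genes tested. The members just described were not called, and Axl, at 10.96 ± 3.18 FPKM (SD, n = 4) in control cells and 37.1 ± 9.001 FPKM (SD, n = 3) in repopulating cells, was not called either (0 of 25 other disease-associated genes).

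The other 4 members overlapped. Cd9 had 398 to 536 FPKM in control cells and 531 to 650 in repopulating cells. Lgals3 had 104, 64.2, 40.5 and 32.9 FPKM in control cells and 55.1, 30.8 and 16.5 FPKM in repopulating cells, and the monocyte markers had the same order within each group, at a summed 926, 605, 366 and 168 FPKM and 308, 226 and 97.8 FPKM. Their part in the Lgals3 levels was not tested. Spp1 had 5.15, 4.10, 5.04 and 1.12 FPKM in control cells and 3.12, 1.23 and 2.33 FPKM in repopulating cells. Cd63 lay between 108 and 150 FPKM in control cells and between 112 and 126 FPKM in repopulating cells.

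**Figure D3:**
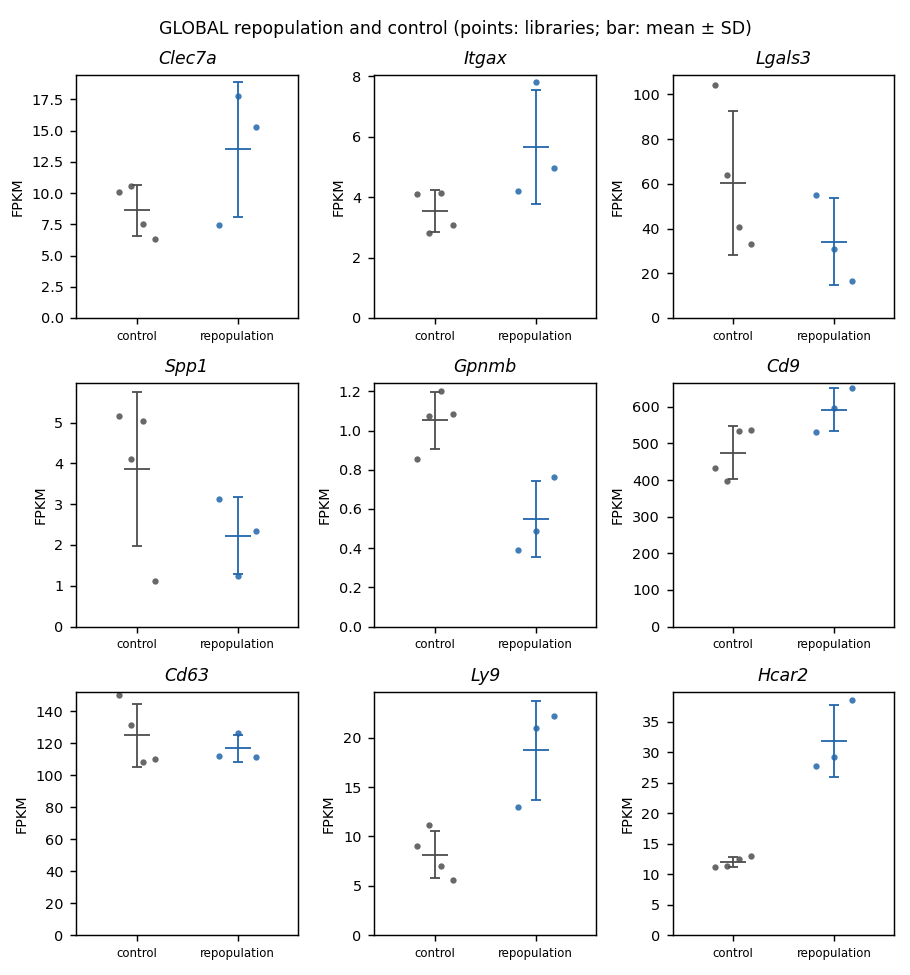
FPKM of the 9 members in control cells (grey, n = 4) and GLOBAL repopulating cells (blue, n = 3), with a point per library and bars for mean ± SD. The repopulating cells lie above all control cells for Itgax, Ly9 and Hcar2, and below them for Gpnmb. None of these differences was called, and 9.96% of all genes tested did not overlap.

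LPS moved the members in opposite directions. In control cells at 6 hr, 7 of the 8 tested were called against 0 hr, 4 higher and 3 lower, where 42.5% of all genes tested were called. At 24 hr, 5 of 8 were called against 21.3%, 4 higher and 1 lower. In WM cells, 6 of 8 were called at 6 hr against 38.8%, 4 higher and 2 lower, and 5 of 8 at 24 hr against 18.8%, 3 higher and 2 lower. The comparisons with 0 hr share libraries with that of WM and control cells at 0 hr. Homeostatic genes fell beside them, 17 of 19 in control cells and 17 of 19 in WM cells at 6 hr.

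Spp1, whose promoter is one of those printed here, had the largest fold change of the members. Control cells went from 7.45, 3.24 and 5.07 FPKM at 0 hr to 200, 77.8, 124, 255 and 235 FPKM at 6 hr and 43.4, 63.5, 21.2 and 61.4 FPKM at 24 hr. The log2 fold change at 6 hr was 4.77 ± 0.43 (SE), with a limma adjusted p of 6.77e-09. In WM cells, levels reached 462, 211, 379 and 411 FPKM at 6 hr, a log2 fold change of 6.13 ± 0.42 (SE) and a limma adjusted p of 1.49e-10, and stood at 60.7, 136, 38.1 and 27.9 FPKM at 24 hr. The WM and control libraries at 6 hr overlapped in part, since WM replicate 2 lay below 2 control libraries, and that difference was not called (limma adjusted p = 0.328). The osteopontin receptor gene Cd44 rose beside it, from 5.23 ± 1.07 FPKM (SD, n = 3) to 59.0 ± 36.6 FPKM (SD, n = 5) in control cells at 6 hr, with a limma adjusted p of 1.88e-07.

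Lgals3 rose to 245, 237, 176, 288 and 275 FPKM in control cells at 6 hr from 60.2, 33.3 and 47.4 FPKM, with a ratio of 5.20 and a limma adjusted p of 2.10e-05. In WM cells it went from 63.0, 69.6, 102 and 42.9 to 346, 261, 198 and 200 FPKM (limma adjusted p = 0.000263). By 24 hr WM cells were at 51.2, 185, 117 and 41.4 FPKM, which overlapped 0 hr and was not called (limma adjusted p = 0.602). Control cells at 24 hr were called (limma adjusted p = 0.0186), but not without control 0 hr replicate 2 or control 24 hr replicate 1 (0.0986 and 0.0628). The 6 monocyte markers moved with Lgals3 and Spp1, from a summed 103 to 334 FPKM in control cells at 0 hr to 1186 to 2376 FPKM at 6 hr and 432 to 552 FPKM at 24 hr, and 5 of the 6 were called higher at 6 hr. In WM cells they summed to 125 to 397 FPKM at 0 hr, 1195 to 3313 FPKM at 6 hr and 130 to 663 FPKM at 24 hr, and 24 hr replicate 2, the highest of its group, was also the highest for 7 of the 9 members (all but Itgax and Ly9). Markers of other cells moved after LPS as well. Of 7 neutrophil markers, 1 was called lower in control cells and 5 in WM cells at 6 hr, Ly6g among them with a log2 fold change of -2.60 and -3.02 (limma adjusted p = 0.000287 and 4.26e-05). The choroid plexus markers in WM cells summed to 280 to 716 FPKM at 0 hr, 158 to 600 FPKM at 6 hr and 10.9 to 32.03 FPKM at 24 hr, with 3 of 4 tested called lower at 24 hr. The 6 dendritic cell markers summed to 22.4 to 49.1 FPKM in control cells at 0 hr, 5.92 to 21.7 FPKM at 6 hr and 4.96 to 10.05 FPKM at 24 hr, and to 25.1 to 46.2, 6.12 to 8.55 and 4.45 to 7.23 FPKM in WM cells. The members of that list split in control cells at 24 hr, where Cd209a was called lower and Xcr1 higher (log2 fold change -4.19 and 0.78, limma adjusted p = 3.45e-06 and 0.00637). The 5 astrocyte markers in control cells summed to 53.1 to 56.9 FPKM at 0 hr and 33.3 to 38.5 FPKM at 24 hr. In WM cells these ranges overlapped. The 5 listed oligodendrocyte markers in control cells went from 56.5 to 70.7 FPKM at 0 hr to 34.7 to 50.3 FPKM at 6 hr. In WM cells they went from 60.03 to 72.8 FPKM to 44.8 to 52.4 FPKM. The 2 precursor markers in WM cells went from 0.198 to 0.319 FPKM to 1.48 to 3.98 FPKM at 6 hr. The part of all these markers in the members' changes was not tested.

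Hcar2 rose in control cells from 10.6, 11.2 and 6.00 FPKM to 126, 450, 95.9, 184 and 108 FPKM at 6 hr (log2 fold change 4.02 ± 0.40 SE, limma adjusted p = 3.09e-08). In WM cells it rose from a higher level to 233, 347, 297 and 185 FPKM, a log2 fold change of 2.63 ± 0.39 (SE). The difference of the 6 hr responses was -1.39 (95% confidence interval -2.55 to -0.23) and was not called, with a limma adjusted p of 0.638.

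The 2 tetraspanins moved apart. Cd9 fell in control cells from 1029, 1089 and 905 FPKM to 409, 436, 371, 399 and 364 FPKM at 6 hr and 329, 336, 316 and 333 FPKM at 24 hr, and in WM cells from 975, 1006, 958 and 1118 to 416, 539, 564 and 378 FPKM and then 369, 439, 305 and 288 FPKM. All libraries after LPS lay below all libraries at 0 hr. The log2 fold change at 24 hr was -1.61 ± 0.15 (SE) in control cells and -1.55 ± 0.14 (SE) in WM cells, with limma adjusted p of 1.12e-07 and 3.65e-08. Cd63 rose in control cells from 201, 233 and 187 FPKM to between 399 and 517 FPKM at 6 hr and between 457 and 584 FPKM at 24 hr, and in WM cells from 175 to 207 FPKM to between 432 and 606 and then 530 and 724 FPKM. Of the 15 other tetraspanin genes tested, 0 rose and 7 fell in control cells at 6 hr, beside 42.5% of all genes called. In WM cells 1 rose and 8 fell, beside 38.8% of all genes called.

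Ly9 fell in both, from 23.6, 22.5 and 13.6 FPKM to 10.7, 12.4, 9.28, 8.76 and 12.9 FPKM in control cells at 6 hr (limma adjusted p = 0.000598) and from 45.2, 52.1, 51.0 and 58.3 to 16.9, 22.7, 15.1 and 14.7 FPKM in WM cells (limma adjusted p = 1.36e-07). At 24 hr WM cells stayed low at 19.98, 17.6, 20.9 and 16.2 FPKM, beside 16.5, 15.5, 13.3 and 15.6 FPKM in control cells. The 24 hr response in WM cells minus that in control cells was -1.09 on the log2 scale (95% confidence interval -1.60 to -0.58), with a limma adjusted p of 0.0763. The lymphocyte markers in WM cells summed to 14.8 to 25.7 FPKM at 0 hr, 7.003 to 13.3 at 6 hr and 4.42 to 12.5 at 24 hr. Of the 6 tested, Cd3d and Cd3g were called lower and Klrb1c higher at 6 hr (log2 fold change -1.45, -1.71 and 1.46), and 3 were called lower and 0 higher at 24 hr. Within the SLAM family, Cd244 went the other way, from 1.56 ± 0.60 FPKM (SD, n = 3) to 51.7 ± 4.55 FPKM (SD, n = 5) in control cells at 6 hr (limma adjusted p = 9.07e-16).

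Clec7a fell in control cells at 6 hr by 0.68 on the log2 scale (limma adjusted p = 0.0447), a call that rested on control 0 hr replicate 1 at 17.6 FPKM. Without that library the log2 fold change was -0.33 with an adjusted p of 0.374, and leaving out control 0 hr replicate 3 or control 6 hr replicates 2, 3 or 4 also ended the call (0.0563, 0.0746, 0.0966 and 0.0629). In WM cells Clec7a at 24 hr was lower than at 0 hr with a limma adjusted p of 0.0596, which became 0.0253 without WM 24 hr replicate 2. Itgax was not called at any time, and its control 6 hr libraries spread widely, at 3.47, 4.55, 1.07, 5.30 and 2.13 FPKM. Gpnmb stayed under 1 FPKM in all libraries of this table but WM 24 hr replicate 2, at 1.55 FPKM from 44 reads.

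The related genes moved in both directions at 6 hr, beside 42.5% of all genes tested called in control cells and 38.8% in WM cells. Of 10 C-type lectins, 5 rose and 2 fell in control cells and 4 rose and 2 fell in WM cells, and the rises included Clec4e, a receptor for glycolipids, from 1.81 ± 1.32 FPKM (SD, n = 3) to 37.3 ± 12.2 FPKM (SD, n = 5) in control cells (limma adjusted p = 8.79e-08). Of 5 galectin genes, 3 rose and 0 fell in both, with Lgals1 at 51.7 ± 28.1 FPKM before and 244 ± 47.5 FPKM after LPS in control cells (limma adjusted p = 1.17e-06). Of 8 osteopontin receptor genes, 3 rose and 3 fell in control cells, and 2 rose and 3 fell in WM cells. Of 3 beta-2 integrin genes, Itgal rose in both, with a log2 fold change of 1.94 in control cells and 0.93 in WM cells. Of the 4 MiT family genes, Tfec rose in both (log2 fold change 3.15 and 3.40), and 1 fell in control cells and 3 in WM cells. Of 9 SLAM family genes, 3 rose and 3 fell in control cells and 2 rose and 4 fell in WM cells. Of 8 dectin-1 signaling genes, 1 rose in control cells and 2 fell in WM cells.

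**Figure D4:**
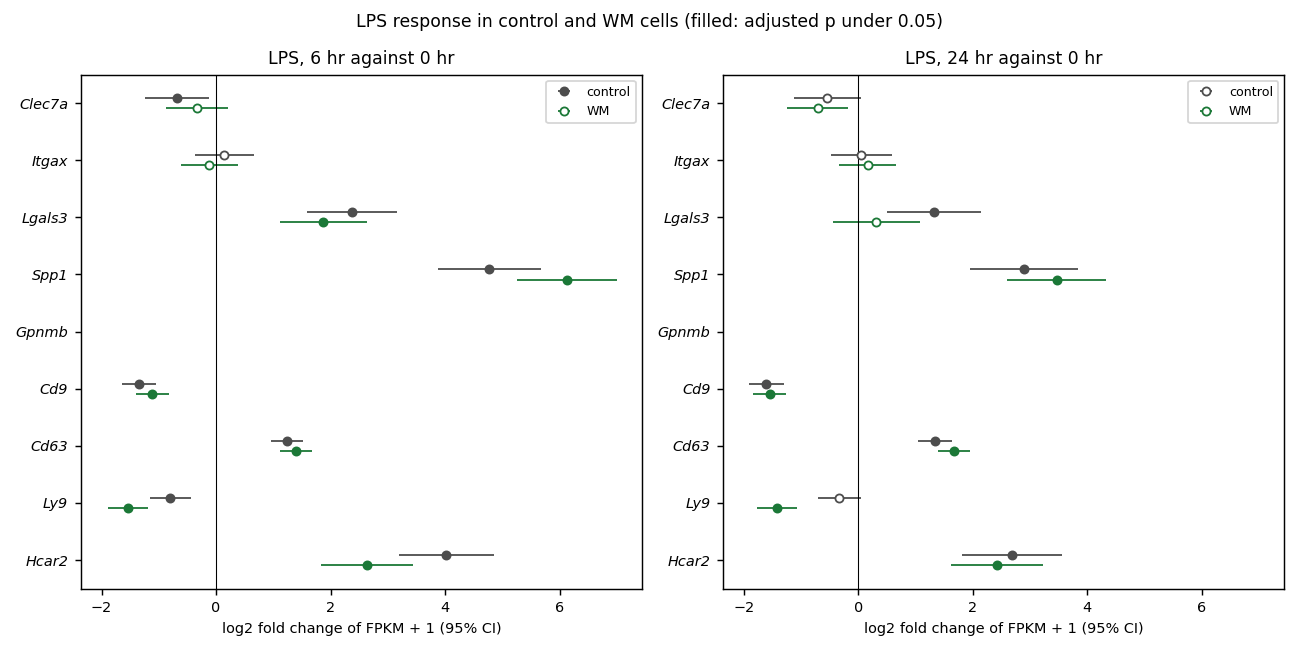
Log2 fold change of FPKM + 1 at 6 hr (left) and 24 hr (right) after LPS against 0 hr in control cells (grey) and WM cells (green), with 95% confidence intervals and filled points for adjusted p under 0.05. Spp1, Cd63 and Hcar2 rise and Cd9 falls at both times in both kinds of cell.

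From 6 to 24 hr, 4 of 8 members were called in control cells, where 28.3% of all genes tested were, with Lgals3, Spp1 and Hcar2 lower and Ly9 higher. In WM cells 3 of 8 were called against 15.7%, with Lgals3, Spp1 and Cd9 lower. Over the same interval the 7 neutrophil markers in control cells went from a summed 878 to 5640 FPKM to 6286 to 15120 FPKM, and 4 were called higher, among them Retnlg, Ly6g and S100a8 (log2 fold change 3.65, 2.18 and 2.17), while in WM cells 1 was called higher. Of the 6 monocyte markers 5 were called lower in control cells and 5 in WM cells, and of the 4 choroid plexus markers tested 2 and 4 were. The part of these markers in the members' changes was not tested. Hcar2 in WM cells was at 233, 347, 297 and 185 FPKM at 6 hr and 256, 305, 217 and 145 FPKM at 24 hr, which overlapped (limma adjusted p = 0.768). In control cells the call of Lgals3 was lost without 6 hr replicate 4 or 5 or 24 hr replicate 3 or 4 (adjusted p of up to 0.125), that of Ly9 without 6 hr replicate 3 or 4 or 24 hr replicate 1, 2 or 4 (up to 0.0782) and that of Hcar2 without 24 hr replicate 4 (0.0516). In WM cells that of Cd9 was lost without 6 hr replicate 2 or 3 or 24 hr replicate 3 or 4 (up to 0.124).

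Whether the responses of WM and control cells differed was tested as an interaction, which was called for 0 of 8 members at 6 hr, where 0.0237% of genes were called, and for 0 of 8 at 24 hr, where 0.0867% were. At an unadjusted p under 0.05 were 3 members at 6 hr (Spp1, Ly9 and Hcar2), beside 913 of all 12684 genes tested, and 1 at 24 hr (Ly9), beside 1105 of 12684.

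Over the 24 libraries of sorted cells, each member was set beside the 2 tested genes whose log2(FPKM + 1) followed it most closely, as a description over libraries that share groups and times. Lgals3 followed Ly6c2 and S100a4 (Pearson's r of 0.95 for both), genes of monocytes and other blood cells. Spp1 followed Ms4a6d and Ms4a6b (both 0.97). Cd63 followed Gbp7 (0.97) and Cd244 (0.95). Cd9 followed Cst3 (0.96) and Ramp1 (0.95). Hcar2 followed Arid5a (0.95) and Stat2 (0.94). Ly9 followed St8sia6 (0.93) and Arsb (0.88). For Clec7a the closest genes were Haao and Rnf128 (both 0.82), and for Itgax H2-K1 (0.74) and Ripk2 (0.71). Between members, r was highest for Lgals3 with Spp1 (0.83) and lowest for Cd9 with Cd63 (-0.90).

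SVZ tissue was read as a whole, with the RNA of all its cells. Of the 4 members tested, 0 were called at 14 days of PLX3397 against control, where 1.26% of all genes tested were called by limma, 0 in 5 day recovery against control, where 1.27% were, and 0 in recovery against PLX3397, where 0.325% were. At an unadjusted p under 0.05 there were 0 members in each, beside 866, 2346 and 2338 of all 14151 genes tested. The 10 myeloid reference genes averaged 18.8% of the control mean at 14 days of PLX3397 (SD 2.80, n = 5) and 32.1% in 5 day recovery (SD 2.45, n = 5). Cd9 was at 88.0% (SD 12.7) and 84.6% (SD 18.02) of the control mean at these times. Cd63 was at 82.4% (SD 7.18) and 83.5% (SD 12.7). Lgals3 was at 64.8% (SD 17.6) and 65.6% (SD 21.5), with log2 fold changes of -0.14 at both times. Tyrobp, the adaptor of Trem2, fell from 62.8 ± 14.7 FPKM to 0.35 ± 0.24 FPKM (SD, n = 5 each), with a limma adjusted p of 9.14e-13.

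Control replicate 1, the library with the choroid plexus markers, was the highest control mouse for Lgals3, Cd9 and Cd63. Lgals3 was at 11.1 FPKM there against 1.40, 2.02, 1.47 and 1.72 FPKM, Cd9 at 142 against 67.5, 79.8, 70.8 and 79.6 FPKM, and Cd63 at 154 against 55.4, 61.8, 58.7 and 52.2 FPKM. Ttr, the main choroid plexus transcript, was at 20946 FPKM in that mouse and between 13.3 and 115 FPKM in the other control mice. The part of choroid plexus RNA in these levels was not tested. Without that mouse, Lgals3 at 14 days of PLX3397 was at 138% of control (SD 37.6), Cd9 at 104% (SD 15.04) and Cd63 at 110% (SD 9.63), the log2 fold changes turned to 0.30, 0.05 and 0.14, and the myeloid reference genes were at 18.2%. In 5 day recovery without that mouse, Lgals3 was at 140% of control (SD 46.03), Cd9 between 80.7% and 128% and Cd63 at 112% (SD 17.004), and the myeloid reference genes were at 31.3%.

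Lgals3 had 3.17, 2.01, 1.52, 2.16 and 2.58 FPKM at 14 days of PLX3397 and 1.72, 3.54, 1.96, 2.57 and 1.80 FPKM in recovery. Spp1 had 7.68, 16.4, 6.14, 8.84 and 11.6 FPKM in control mice, 9.86, 6.48, 12.6, 26.6 and 8.98 FPKM at 14 days of PLX3397 and 8.29, 9.66, 7.54, 20.4 and 30.5 FPKM in recovery. The groups overlapped for both genes, and for Spp1 the highest mice were replicate 4 of PLX3397 and replicates 4 and 5 of recovery. The log2 fold change of Spp1 in recovery against control was 0.42 with a 95% confidence interval of -0.39 to 1.23. Gpnmb stayed under 1 FPKM in all 15 mice and was not tested.

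**Figure D5:**
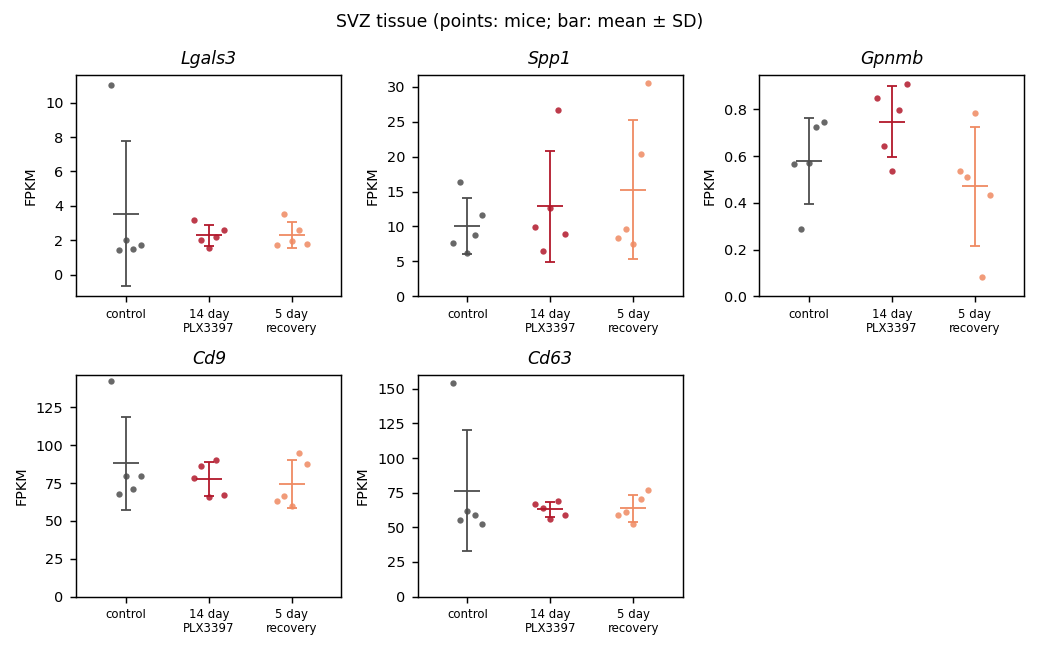
FPKM of the 5 members listed in SVZ tissue in control mice, mice at 14 days of PLX3397 and mice in 5 day recovery (n = 5 each), with a point per mouse and bars for mean ± SD. The high control point for Lgals3, Cd9 and Cd63 is the same mouse, replicate 1.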

How the data were processed

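The 46 libraries came from 3 experiments. By the study's methods, amplified cDNA was made with Smart-seq2; the labels describe a different library protocol. The submitters' notes name STAR, featureCounts and mm10. What the authors deposited is 1 FPKM table for each experiment, and comparisons stayed inside a table because each was normalized on its own. Groups came from the labels, and the study's methods count mice as replicates. No value column was left out (0).

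Whole reads (tolerance 0.001) fitted 98.5% (SVZ), 98.8% (WM and LPS) and 99.6% (GLOBAL) of genes, which gave depth. Filtering required an FPKM of 1 or more in 3 or more libraries. One limma 3.58.1 model per table (R 4.3.3, all groups, variance trend) was fitted to log2(FPKM + 1), a scale that understates changes of low genes; tests were 2-sided, with Benjamini-Hochberg adjustment over all tested genes and calls at an adjusted p under 0.05. Simulated data had independent normal noise and 200 genes, with a mean log2 level above 2, changed by 2 on the log2 scale. Of these, 200 (SVZ, PLX3397 against control), 197 (WM against control at 0 hr) and 188 (GLOBAL) were called. Beside them 13, 8 and 11 unchanged genes were called. Smaller changes, and changes in lower genes, were not simulated. Alternatives were a pseudocount of 0.1, no filter, quantile normalization, a replicate block, only the groups compared, and each library left out.

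All 9 members were named, with at most 3 called genes per list and comparison, by smallest adjusted p, and 2 genes per member by correlation; the levels of Axl in the GLOBAL experiment were chosen after they were seen. The members and lists were chosen with earlier results of these data known. Coordinates are RefSeq's for GRCm38.p6.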

Additional observations from a re-analysis of the deposited data

Results flagged for a closer look

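In groups of 4 or 5 libraries, 8 of the 69 member and group sets tested held a library whose gap to the nearest other was over the 95% limit of Dixon's test, which chance alone passes in about 1 set of 20. In SVZ tissue these were all control replicate 1, with Lgals3 at 11.1 FPKM, Cd9 at 142 FPKM and Cd63 at 154 FPKM. In sorted cells after LPS, Hcar2 was at 450 FPKM in control 6 hr replicate 2, Cd63 at 399 FPKM in control 6 hr replicate 3, Itgax at 6.22 FPKM in WM 24 hr replicate 4 and Gpnmb at 1.55 FPKM in WM 24 hr replicate 2. Gpnmb was also apart at 0.608 FPKM in WM 0 hr replicate 4, from 18 reads.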

How the results depend on the processing

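Of 109 member results, a pseudocount of 0.1 changed no call. No filter on low values ended 1 call and quantile normalization added 1, of Clec7a in control cells at 6 hr and in WM cells at 24 hr against 0 hr (adjusted p = 0.0544 and 0.0407). Quantile normalization turned the uncalled Cd63 differences to -0.046 in SVZ recovery against PLX3397 and to -0.037 in WM against control cells at 6 hr, and the replicate block turned that of Itgax in control cells at 24 against 0 hr to -0.031. With only the groups compared, 4 calls were lost and 1 was gained. Ly9 and Hcar2 were lost in control cells from 6 to 24 hr, which left 2 members called in place of 4, Clec7a in control cells at 6 against 0 hr (adjusted p = 0.0853) and Cd9 in WM cells at 24 against 6 hr (0.0948), and Clec7a in WM cells at 24 against 0 hr was gained (0.0422). With the replicate block, 2 members in place of 0 were called in GLOBAL cells, Lgals3 (-1.06, adjusted p = 0.0277) and Hcar2 (1.36, adjusted p = 0.0228), and Clec7a in WM cells at 24 against 0 hr (adjusted p = 0.0343). Same-numbered libraries correlated at -0.15 to 0.49 in the SVZ table, -0.19 to 0.27 in the WM and LPS table and 0.06 to 0.14 in the GLOBAL table, so the numbers were not taken as pairs. Among GLOBAL libraries, 2 of the 3 same-numbered pairs were above 0.1, and the 9 pairs of different numbers reached at most 0.091. The cause of these changes was not tested.

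Without 1 library, 8 of 36 member calls were lost. The number of members called in control cells from 6 to 24 hr ranged from 1 to 4. The sign changed for 26 results, none of them called (0). Their log2 fold changes ranged, for PLX3397 against control in the SVZ, from -0.29 to 0.30 (Lgals3), -0.048 to 0.42 (Spp1), -0.22 to 0.049 (Cd9) and -0.25 to 0.14 (Cd63), for recovery against control from -0.28 to 0.30 (Lgals3) and -0.24 to 0.15 (Cd63), and for recovery against PLX3397 from -0.11 to 0.10 (Lgals3), -0.11 to 0.47 (Spp1), -0.16 to 2.71e-06 (Cd9) and -0.058 to 0.080 (Cd63). For WM against control cells they ranged from -0.064 to 0.069 (Cd9) at 0 hr, from -0.047 to 0.35 (Itgax), -0.14 to 0.13 (Lgals3) and -0.083 to 0.079 (Cd63) at 6 hr, and from -0.12 to 0.63 (Spp1) and -0.043 to 0.16 (Cd9) at 24 hr. In control cells they ranged from -0.025 to 0.38 (Itgax) at 6 against 0 hr, -0.0056 to 0.15 (Itgax) at 24 against 0 hr, and -0.00035 to 0.31 (Clec7a) and -0.32 to 0.080 (Itgax) at 24 against 6 hr. In WM cells Lgals3 at 24 against 0 hr ranged from -0.072 to 0.64. For the difference of responses they ranged from -0.0097 to 0.61 (Clec7a) at 6 hr, and from -0.53 to 0.093 (Clec7a), -0.019 to 0.17 (Itgax) and -0.054 to 0.15 (Cd9) at 24 hr. Cd63 in GLOBAL cells ranged from -0.15 to 0.0051.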
